A study of Mus musculus with 21 samples.

Results

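Meox1, Meox2 and Tcf15 encode transcription factors of the paraxial mesoderm. The 3 genes were chosen by symbol, from among 18193 genes with a single symbol on the arrays. They are covered by 4 probe sets, 1 for Meox1, 1 for Tcf15 and 2 for Meox2, and the probe set with the highest mean signal stood for each gene. The presomitic mesoderm (PSM), the unsegmented tissue that gives rise to somites, was taken from embryos of the outbred CD-1 strain. The stage label is embryonic day 8.5 and the dissection protocol says 9.0 days post-coitus. No embryo carried a mutation or a drug treatment, and all were exposed briefly to pancreatin so that neighbouring tissue could be removed. Each PSM was cut into 7 pieces, named parts 1 to 7, and each part was measured on 3 arrays, 21 in all. The descriptions give the range as tailbud to somite without saying which part number lies at which end.

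As background, somites form when mesenchymal cells at the rostral end of the PSM become epithelial and separate as a block. Tcf15, also called paraxis, is a basic helix-loop-helix factor required in the mouse for somites to become epithelial. Meox1 and Meox2 are related homeodomain factors with overlapping roles in patterning somites and in the skeletal and muscle tissue made from them. Meox2 is also expressed in endothelium of later tissues. Mesp2 sets the position of the next somite boundary, and Tbx6 maintains paraxial mesoderm identity in the unsegmented tissue.

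The mean MAS5 signal per array was between 151 and 154, so that array brightness was alike by construction. All 8 caudal progenitor markers measured were lower in part 7 than in part 1, where 7.3% of all genes were lower. Among them were Cyp26a1 (log2 difference -5.52 ± 0.64, SE, limma adjusted p = 5.7e-06) and Hes7, a clock repressor. Over parts 1 to 4 the slope of Hes7 was -0.09 ± 0.14 log2 units per part (SE, limma adjusted p = 0.854). Some arrays share an embryo, since left and right PSM came from one animal, and the labels do not say which. The p-values therefore measure the spread between arrays and not between embryos. In pieces of tissue, fewer expressing cells and less RNA per cell cannot be told apart. Arrays of the same part could differ widely in single markers. Cyp26a1 had signals of 520, 2479 and 3042 in part 1, and Mesp2 had 85.9, 190.5 and 1439 in part 4. In part 7, 1 array stood apart from its group in several markers of the boundary region. In part 7 replicate 2 the signal of Ripply2, a repressor active at the forming boundary, was 918, against 13.5 and 7.01 in the other part 7 arrays. Tbx6 had a signal of 50.3 in that array, against 19.7 and 19.0 in the others, and the summed signal of 13 segment boundary genes was 7103, against 1511 and 1675. The Meox2 results over parts 4 to 7 and the list counts for part 7 are given with and without it.

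Promoter sequences of Meox1 and Tcf15 were not at hand, so the genes are not compared here. The promoter of Meox2 was available and is shown. It is 300 bases around the start of the gene, at chr12:37108290-37108589 on the plus strand of GRCm38.p6, from RefSeq. Capitals mark the match to the E-box CANNTG, the motif recognised by basic helix-loop-helix factors such as Tcf15.
Meox2 promoter: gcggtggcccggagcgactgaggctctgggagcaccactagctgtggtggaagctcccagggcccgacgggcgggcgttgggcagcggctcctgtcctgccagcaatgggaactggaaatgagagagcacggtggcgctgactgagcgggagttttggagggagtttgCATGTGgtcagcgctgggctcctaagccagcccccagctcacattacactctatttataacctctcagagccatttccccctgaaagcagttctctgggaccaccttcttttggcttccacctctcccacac
It held 1 match on either strand, CATGTG, and 72.3% of 32851 promoters of the same length held at least 1. The homeodomain motif TAATTA, which was searched on both strands, had 0 matches here and was present in 5.29% of all promoters. These matches describe the letters in the window only.

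The midpoints of the rise came in the order Meox1, Tcf15, Meox2, while Tcf15 already had a signal of at least 111 in every part 1 array. Meox1 and Tcf15 were higher than in part 1 from part 3 onward, and Meox2 from part 5 onward. Each of them differed between parts by limma's moderated F test, which called 13.4% of 12143 genes at an adjusted p under 0.05. The adjusted p was 5.12e-10 for Meox1, 7.13e-09 for Meox2 and 4.12e-09 for Tcf15.

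Meox1 had signals of 14.7, 15.1 and 46.7 in the part 1 arrays, in the order of replicates 1 to 3. In part 2 its signals were 43.5, 15.97 and 77.4. In part 3 they were 635, 162 and 385. All 3 arrays of part 3 were thus above all 6 arrays of parts 1 and 2, and replicate 2 was the lowest of them. Part 4 gave 2192, 1375 and 1715, and part 5 gave 2545, 2320 and 2284. Part 6 gave 3000, 3060 and 3098, and part 7 gave 2723, 3237 and 2195. From part 5 on the groups lay close together, and every array of parts 5 and 6 was within the range of part 7.

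On the log2(signal + 16) scale, Meox1 averaged 8.49 ± 0.95 in part 3 and 5.29 ± 0.59 in part 1 (SD, n = 3 each). The difference of 3.20 ± 0.39 (SE) had a limma adjusted p of 6.8e-05. Of all genes 1.49% were higher in part 3 than in part 1, and Meox1 had the 3rd highest of the 12143 differences. In part 4 its difference from part 1 was 5.48 ± 0.39 (adjusted p = 4.2e-08), the highest of all genes, where 2.29% of genes were higher. Part 2 had a log2 difference of 0.52 ± 0.39 from part 1 (adjusted p = 0.647), with a 95% interval of -0.28 to 1.33, and 0.313% of genes were higher there. The 2 neighbouring steps that passed were part 3 over part 2 (2.68 ± 0.39, adjusted p = 0.0156) and part 4 over part 3 (2.28 ± 0.39, adjusted p = 0.0262). Meox1 was the gene called higher in part 3 than in part 2, a step with 0.00824% of genes called, and 0.0412% were called for the step to part 4. Both calls are narrow: each was lost with 4 of the 21 single arrays left out, all of them arrays of the parts compared, with adjusted p up to 0.179 for the first step and 0.273 for the second. The first was also lost without replicate 1 or 3, and the second without replicate 1, 2 or 3 or with a pseudocount of 1 (2.34, adjusted p = 0.141).

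Tcf15 was above 13.3, the median of all values in the table, in all 21 arrays. Its signals were 111, 112 and 166 in part 1 and 191, 210 and 134 in part 2. In part 3 they were 510, 240 and 321, and in part 4 they were 1062, 722 and 672. The arrays of part 3 did not overlap those of part 1 or 2, and those of part 4 lay above them all. Part 5 gave 1762, 894 and 934, with replicate 1 far above the others. Part 6 gave 2518, 2101 and 2048, and part 7 gave 2345, 2285 and 1528, so that the last 2 parts overlapped.

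Tcf15 averaged 8.48 ± 0.52 in part 3 and 7.16 ± 0.30 in part 1 on the log2(signal + 16) scale (SD, n = 3 each). The difference was 1.32 ± 0.28 (SE; limma adjusted p = 0.00987). In part 4 the difference from part 1 was 2.51 ± 0.28 (adjusted p = 7.39e-06), and in part 7 it was 3.83 ± 0.28 (adjusted p = 1.2e-08). The call in part 3 depended on single arrays: without part 3 replicate 1, without part 1 replicate 2, or without all arrays of replicate 1 or 2, the first part called was part 4. No neighbouring step of Tcf15 passed in this fit, though calls changed under other fits. The largest steps were 1.20 ± 0.28 from part 3 to part 4 (adjusted p = 0.176, and 0.0496 with array weights) and 0.95 ± 0.28 from part 5 to part 6 (adjusted p = 0.204), where 0.379% of genes were called higher.

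Meox2 was dim in the first 4 parts. Its signals were 7.63, 4.24 and 5.17 in part 1 and 0.790, 1.56 and 9.05 in part 2. In part 3 they were 3.69, 2.99 and 6.38, and in part 4 they were 30.2, 12.8 and 12.3. Of these 12 arrays, 11 were below 13.3, and part 4 replicate 1 was above it. Part 5 gave 180, 258 and 127, and part 6 gave 215, 255 and 162. Part 7 gave 778, 193 and 566, where replicate 2, the array with the high Ripply2 signal, lay within the range of parts 5 and 6.

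Meox2 averaged 7.62 ± 0.47 in part 5 and 5.07 ± 0.40 in part 4 on the log2(signal + 16) scale (SD, n = 3 each). This step of 2.56 ± 0.35 (SE) was the 5th highest of all genes (limma adjusted p = 0.000951), and 0.264% of genes were called higher. It missed the threshold without replicate 1 (2.79, adjusted p = 0.0623). Against part 1, Meox2 differed by 0.63 ± 0.35 in part 4 (adjusted p = 0.41), with a 95% interval of -0.11 to 1.37. It was higher by 3.19 ± 0.35 in part 5 (adjusted p = 4.86e-06), where 3.48% of genes were higher than in part 1. The share was 5.9% in part 6, where Meox2 differed by 3.37 ± 0.35, and 6.1% in part 7, where it differed by 4.41 ± 0.35 (adjusted p = 1.33e-06 and 4.14e-08). Values near the bottom of the scale are compressed by the added 16, so these differences understate the fold change of Meox2. All arrays of parts 1 to 3 were below 13.3 for Meox2, so it passed the filter on low values only through later parts.

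The step of Meox2 from part 6 to part 7 turned on the array named above. With all arrays it was 1.04 ± 0.35 (adjusted p = 0.839). Limma called 0% of genes higher at this step, 0 genes in all, against 332 at an unadjusted p under 0.05. Without part 7 replicate 2 the Meox2 step was 1.60 with an adjusted p of 0.00844. Meox1 and Tcf15 had signals of 3237 and 2285 in that array, the highest and the middle signal of their groups. Whether the high Ripply2 and low Meox2 signals of this array have one source was not tested.

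The second Meox2 probe set gave the same order at lower signal. It had 81.0, 137 and 78.0 in part 5 and 21.9, 6.63 and 12.1 in part 4. With it in place of the brighter one, the step from part 4 to part 5 was 1.95 (adjusted p = 0.00886) and the first part called was again part 5.

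**Figure D1:**
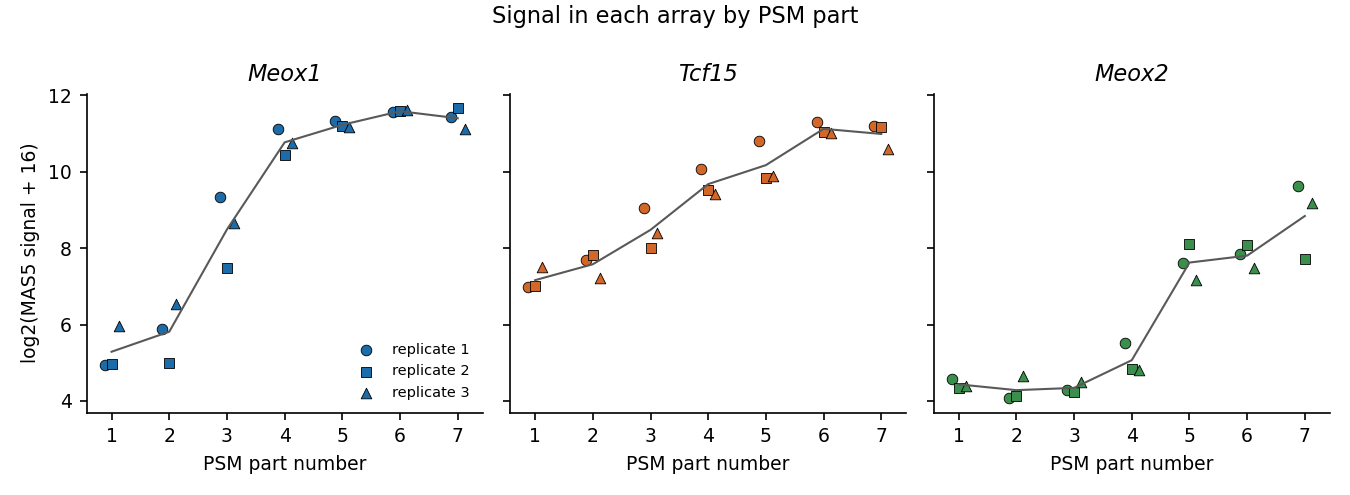
Log2(MAS5 signal + 16) in each of the 21 arrays against PSM part number for Meox1, Tcf15 and Meox2, with a symbol for each replicate number and a line through the part means. Meox1 climbs between parts 2 and 4, Tcf15 climbs over most of the range, and Meox2 stays near 4.3 to 5.1 until part 4 and is at 7.62 in part 5.

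Most of the log2 rise of Meox1 lay in parts 1 to 4 and most of that of Meox2 in parts 4 to 7. The Meox1 mean still went from 10.77 in part 4 to 11.58 in part 6. Over parts 4 to 7 the slope of Meox1 was 0.22 ± 0.12 (SE) log2 units per part (limma adjusted p = 0.369), and over parts 1 to 4 it was 1.91 ± 0.12 (adjusted p = 7.46e-09), the highest of the 12143 genes. The late slope was lower than the early slope by a test of their difference (-1.69 ± 0.21, adjusted p = 6.49e-05), a call made for 1.53% of genes. Meox2 was the reverse. Its late slope was 1.15 ± 0.11 (adjusted p = 1.93e-06) and its early slope 0.20 ± 0.11 (adjusted p = 0.422), and the difference of 0.95 ± 0.19 had an adjusted p of 0.00576. A late slope above the early one was called for 1.74% of genes. That last call was lost without replicate 1 or replicate 3 (adjusted p = 0.104 and 0.112). Without part 7 replicate 2 the late slope of Meox2 was 1.32 and the difference 1.125 (adjusted p = 1.5e-08 and 5.6e-05).

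Tcf15 rose over both ranges. Its late slope was 0.49 ± 0.09 (adjusted p = 0.0015) and its early slope 0.84 ± 0.09 (adjusted p = 3.35e-06). The difference of -0.36 ± 0.15 did not pass (adjusted p = 0.299), with a 95% interval of -0.67 to -0.04. The late slope missed the threshold without replicate 2 (0.43, adjusted p = 0.0775). A rising late slope was called for 3.21% of all genes and a rising early slope for 2.37%.

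**Figure D2:**
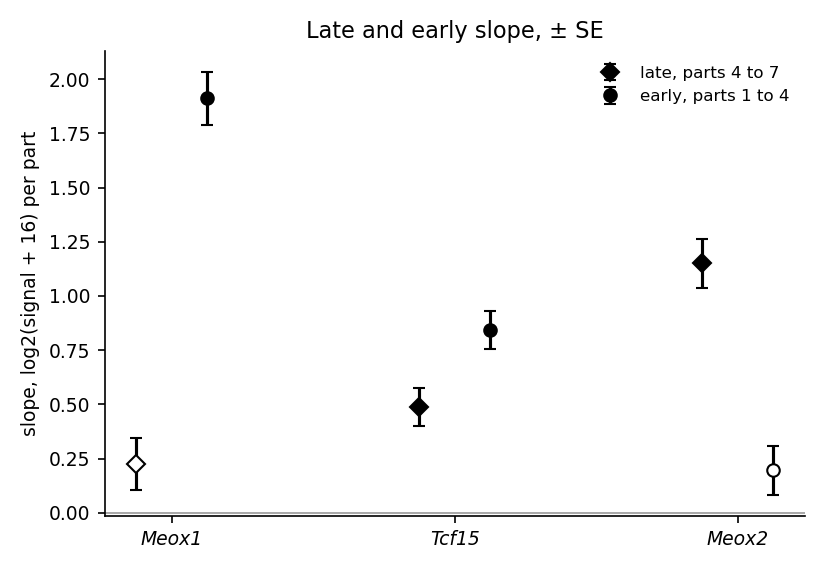
Slope in log2(MAS5 signal + 16) per part over parts 4 to 7 (diamonds) and over parts 1 to 4 (circles), with bars of 1 SE, from limma. Filled symbols passed an adjusted p of 0.05: the late slope for Meox2 (1.15), the early slope for Meox1 (1.91), and both for Tcf15.

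Since the genes differ in range, onset was also compared on a common scale. Each gene's part 1 mean was set to 0% and its part 7 mean to 100% of the log2 rise. In part 3 Meox1 had reached 52.4% of its rise, Tcf15 34.4% and Meox2 -2.09%. In part 4 the shares were 89.7%, 65.7% and 14.3%. By part 6 Meox1 and Tcf15 were both at 103% and Meox2 at 76.5%.

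Over the 15 arrays of parts 2 to 6, Meox1 was ahead of Meox2 in 15 of 15, by a mean of 38.6 percentage points (two-sided permutation test by sign flips, p = 6.1e-05, the smallest these flips can give; adjusted over 3 pairs, 0.000183). Meox2 was behind Tcf15 in 13 of 15 arrays, with a mean difference of -27.1 points (permutation p = 0.000366, adjusted 0.000549). Meox1 was ahead of Tcf15 in 12 of 15 arrays, by 11.5 points (permutation p = 0.0129, adjusted 0.0129). The lead of Meox1 over Tcf15 was in parts 3 to 5, at 18, 24 and 18.5 points and in 9 of 9 arrays. In parts 2 and 6 it was -2.31 and -0.471 points. Without replicate 3 it was 8.78 points and no longer passed (permutation, adjusted p = 0.084). Without part 7 replicate 2, which enters through the part 7 mean, the mean differences were 43.8 points for Meox1 minus Meox2, -32.1 for Meox2 minus Tcf15 and 11.7 for Meox1 minus Tcf15, and all 3 still passed. These tests treat arrays as independent, which those of one embryo are not.

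**Figure D3:**
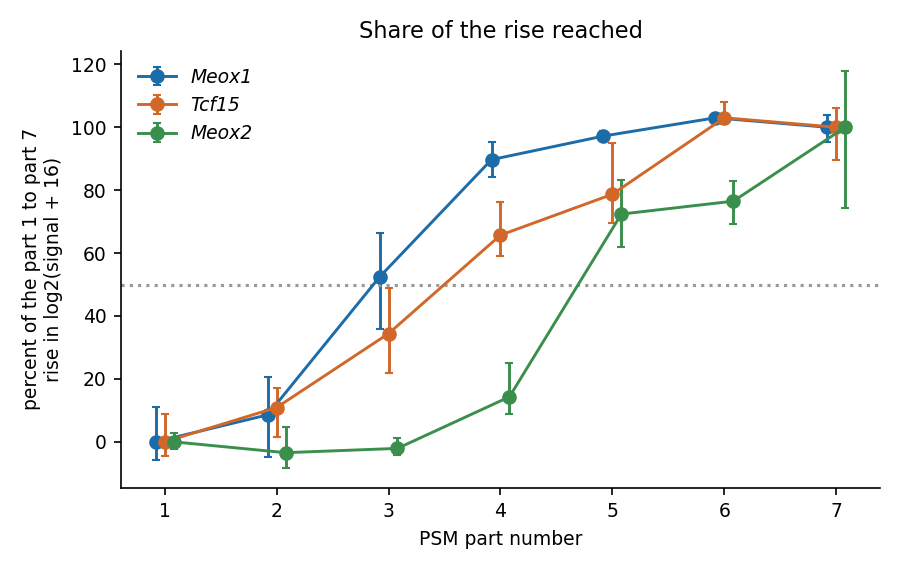
Percent of the log2 rise between the part 1 and part 7 means reached in each part by Meox1, Tcf15 and Meox2, as the mean of 3 arrays with bars from the lowest to the highest array and a dotted line at 50%. In part 4 the ranges do not overlap, and the means are 89.7%, 65.7% and 14.3%.

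The midpoint position was where the log2 level last rose through the midpoint between its first and last part means, in part numbers. The midpoint position was 2.95 for Meox1, 3.50 for Tcf15 and 4.61 for Meox2. Taken within replicate numbers 1, 2 and 3, the position of Meox1 was 2.66, 3.28 and 2.95. That of Tcf15 was 3.05, 3.71 and 3.63, and that of Meox2 was 4.75, 4.36 and 4.84. The order was thus Meox1, Tcf15, Meox2 within each number, while the ranges of Meox1 and Tcf15 overlapped and that of Meox2 lay apart. On the linear signal scale the positions were 3.72, 4.72 and 6.16 in the same order of genes.

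The total amount of rise was another matter. The slope over all 7 parts was steeper for Meox1 than for Tcf15 by 0.44 log2 units per part (100000 permutations of the within-array difference, p = 0.00023, adjusted over 3 pairs 0.00069). Meox1 minus Meox2 gave 0.32 (permutation p = 0.0744, adjusted 0.112) and Meox2 minus Tcf15 gave 0.12 (permutation p = 0.285, adjusted 0.285), neither past the threshold. Both comparisons with Meox2 changed with the value added before the logarithm.

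Among somite and boundary genes the 3 factors took separate places. Of 15 somite factors that passed the filter on low values, of 22 on the arrays, 13 were higher in part 7 than in part 1, where 6.1% of all genes were higher and 7.3% were lower, 0 were lower and 2 did not pass. The same 13 passed without part 7 replicate 2. Of the 13, 3 were below 13.3 in every part 1 array and so passed the filter only through other parts. The list's median log2 difference was 2.81, against 0.001 over all genes tested. The largest were Aldh1a2, which makes retinoic acid (5.53 ± 0.30, SE), Uncx, a caudal somite marker (4.93 ± 0.36), the forkhead gene Foxc2 (4.54 ± 0.28) and Eya1 (3.59 ± 0.56). Of 13 segment boundary genes 4 were higher, 3 were lower and 6 did not pass, with a median of 0.59. Of the 4, Dmrt2 was below 13.3 in every part 1 array and so passed the filter only through other parts. Without part 7 replicate 2 the counts were 4 higher and 5 lower, Epha4 and Nrarp being added. The highest and lowest of them were Cer1 (4.10 ± 0.45) and Tbx6 (-3.65 ± 0.25), with Dmrt2 at 3.55 ± 0.34 and Hes7, a clock repressor, at -3.27 ± 0.44. Each of these 8 passed limma's test over all genes, with adjusted p between 3.64e-10 and 0.000162.

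The midpoint positions of the 17 listed genes that were higher in part 7 gave the setting of each factor. Foxc1, Foxc2 and Eya1 came before Meox1, at 1.75, 1.88 and 2.19. Aldh1a2 was next to Meox1, at 2.94. Between Meox1 and Tcf15 came Sox9 (3.07), Sim1 (3.42) and the Notch target Heyl (3.45), with Efnb2 at 3.50 beside Tcf15. Twist1 (4.32), the rostral somite marker Tbx18 (4.41), Cer1 (4.47), Dmrt2 (4.58) and Pax3 (4.59) lay before Meox2. Uncx (4.93), Gli2 (5.02), Foxd1 (5.35) and the myogenic factor Myf5 (6.46) came after it. The SD over replicate numbers was between 0.26 and 0.36 for the 3 factors, and Myf5 was at 6.56, 1.06 and 6.37, so that close neighbours in this order cannot be ranked.

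**Figure D4:**
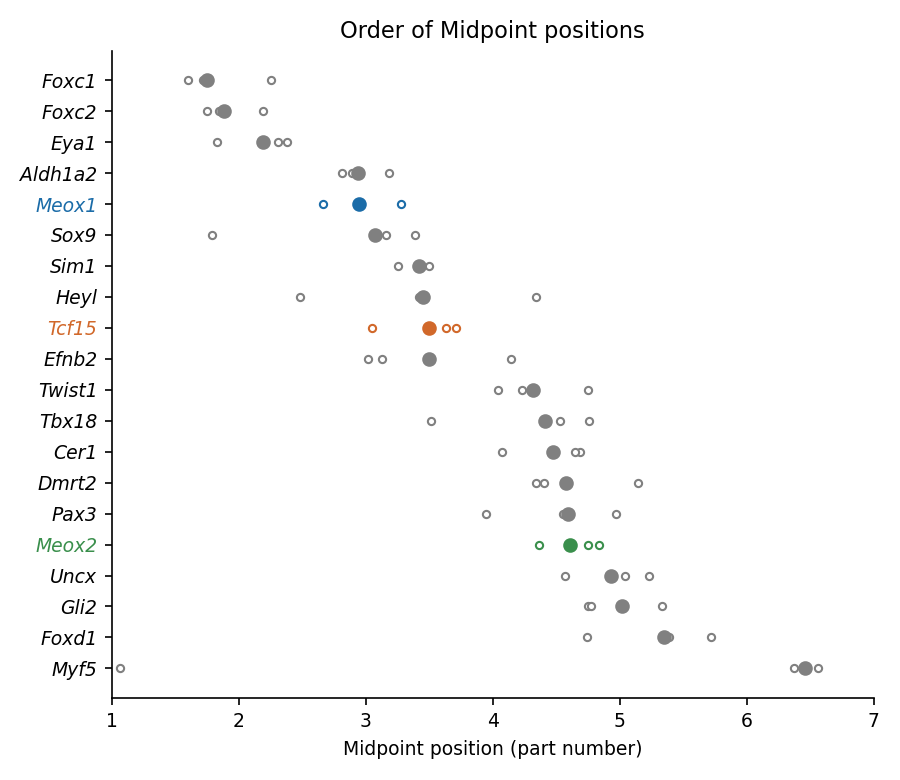
Midpoint position of the rise, in part numbers, of Meox1, Tcf15 and Meox2 (coloured) and of 17 somite and boundary genes that were higher in part 7 than in part 1 (grey). Filled points are from part means, open points from single replicate numbers; Meox1 is 5th, Tcf15 9th and Meox2 16th of 20.

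Mesp2 lay between the early and the late factors. Its signals were 16.7, 9.38 and 49.9 in part 3, 85.9, 190.5 and 1439 in part 4, 138, 172 and 756 in part 5, 88.0, 70.4 and 39.1 in part 6 and 9.89, 54.1 and 9.92 in part 7. It was highest in part 4 or 5 in every replicate number, though by very different amounts. Its slope was -1.12 ± 0.23 (SE) over parts 4 to 7 and 1.17 ± 0.23 over parts 1 to 4 (limma adjusted p = 0.00399 and 0.00249). Meox1 was thus above its part 1 level in part 3, before the Mesp2 peak, and climbed further in the step to part 4 in which Mesp2 climbed, and Meox2 from part 5, where Mesp2 was near its highest mean. Tbx6 averaged 5.45 ± 0.52 log2 units in part 7 and 9.03 ± 0.29 in part 4 (SD, n = 3 each). Over these parts, in which Meox2 rose, its slope was -1.24 ± 0.08 per part (SE; limma adjusted p = 7.92e-09).

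**Figure D5:**
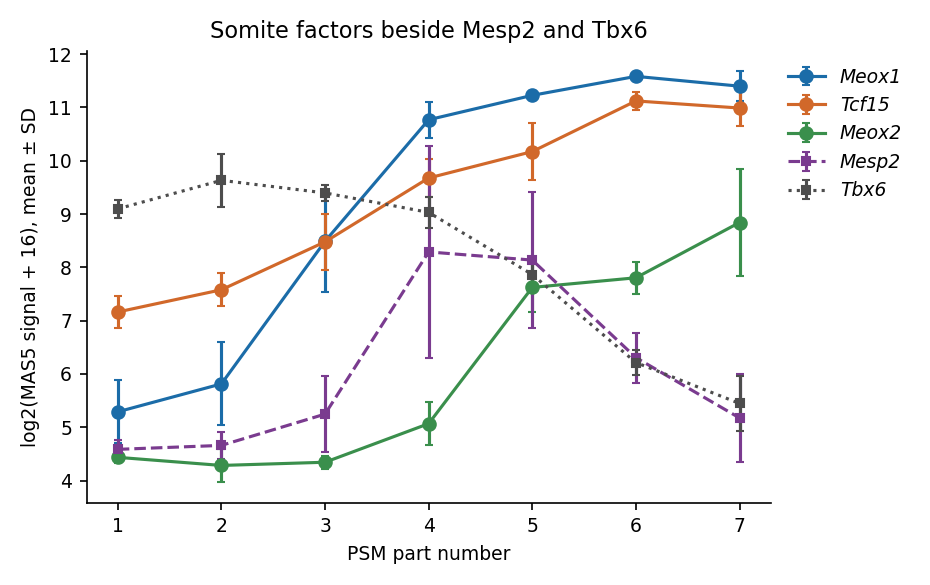
Mean log2(MAS5 signal + 16) with SD over 3 arrays, by PSM part, for Meox1, Tcf15 and Meox2 beside Mesp2 (dashed) and Tbx6 (dotted). Mesp2 has its highest means in parts 4 and 5 (8.29 and 8.14). Meox1 has made most of its log2 climb by part 4 (89.7%), and Meox2 climbs from part 4 to part 5. Levels of different probe sets are not to be compared.

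Few partners of basic helix-loop-helix factors and few genes of epithelialization were called between parts 7 and 1. Of all genes 6.1% were higher in part 7 and 7.3% were lower, so such small counts are not read as a result about these lists. Of 9 basic helix-loop-helix partners and inhibitors that passed the filter, Twist1 was higher in part 7 than in part 1 (3.02 ± 0.49, SE; limma adjusted p = 0.000267) and Id4, which blocks E proteins from binding DNA, was lower (-1.03 ± 0.26, limma adjusted p = 0.0121). The other 7 did not pass, among them Id2 (1.67 ± 0.65, adjusted p = 0.0971) and Twist2 (0.79 ± 0.33, adjusted p = 0.122), and the list median was 0.165. Both Id2 and Twist2 passed without part 7 replicate 2. Of 23 adhesion, polarity and matrix genes of epithelialization 2 were higher, 3 were lower and 18 did not pass, with a median of -0.12. The fibrillin gene Fbn2 was higher by 3.58 ± 0.21 (adjusted p = 1.82e-09) and the planar polarity gene Celsr1 lower by a log2 difference of -1.86 ± 0.38 (adjusted p = 0.00199). The laminin gene Lamb1 was higher by 0.52 ± 0.13 and Snai1, a repressor of cadherin genes, lower by a log2 difference of -1.02 ± 0.33 (adjusted p = 0.0119 and 0.0446), and both calls were lost without part 7 replicate 2, when 2 were higher and 4 lower with Pard6b, Lama1 and Epha4 added. Pcdh8, a protocadherin of the paraxial mesoderm, had 2.03 ± 0.83 (adjusted p = 0.117), and the Eph receptor gene Epha4 had -1.45 ± 0.50 (adjusted p = 0.0613). Of 10 genes on the arrays that were listed as candidates to act downstream of Meox or Tcf15 proteins, 7 passed the filter. Of these 7, 4 were higher and 1, the cell cycle inhibitor gene Cdkn1a, was lower (-0.89 ± 0.26, limma adjusted p = 0.026, lost without part 7 replicate 2). The median of the 7 was 2.37. The 4 higher genes were Foxc2, Uncx, Tbx18 (3.50 ± 0.52) and Pax3 (2.37 ± 0.35), which stand in the somite list too. Of them, Uncx was below 13.3 in every part 1 array and so passed the filter only through other parts. Nkx3-2, a sclerotome gene that needs Meox1 and Meox2 in the mouse, stayed below 13.3 in every array.

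The genes most like each factor were ranked by Pearson's r with it over the 21 arrays, which share parts and, in part, embryos. Likeness in single arrays enters that ranking, so where it is described below it is not separate evidence. For Meox1 the 5 most alike were the receptor tyrosine kinase gene Met (r = 0.991), the adducin gene Add3 (0.984), Aldh1a2 (0.973), the netrin gene Ntn1 (0.971) and the forkhead gene Foxp1 (0.964). Their midpoint positions were between 2.73 and 3.13. Met had signals of 207, 58.2 and 190 in part 3, where replicate 2 was the lowest array, as for Meox1. The least alike were Cldn9 (-0.966), Cd40 (-0.961) and Adamtsl2 (-0.961).

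For Meox2 the most alike were Cd36, a fatty acid receptor (r = 0.976), Stum (0.958), the dystrophin gene Dmd (0.953), the coactivator gene Ppargc1a (0.939) and the transcription factor gene Ebf1 (0.938). In part 1 the mean signals of Cd36, Stum, Ppargc1a and Ebf1 were 0.422, 3.67, 6.17 and 4.52, below 13.3 as for Meox2, and Dmd was at 23.2. These r values thus take in arrays where both signals were low. Cd36 had signals of 57.0, 61.7 and 53.4 in part 5 and 13.8, 6.66 and 12.4 in part 4, and in part 7 replicate 2 it was again the lowest of its group, at 113 against 168 and 160. The least alike were Rftn1 (-0.950), Gad1, which makes the transmitter GABA (-0.940), and Limch1 (-0.939).

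For Tcf15 the most alike were Slc9a3r1, a scaffold that links membrane proteins to the actin cortex (r = 0.976), Srxn1 (0.971), Aldh1a2 (0.966), Lrig1 (0.962) and Add3 (0.961). The least alike were Kitl, the ligand of the Kit receptor (-0.973), Cd40 (-0.961) and Cldn9 (-0.958). Aldh1a2 and Add3 were thus among the 5 nearest of both Meox1 and Tcf15, and the 5 nearest of Meox2 held neither. Over part means alone, r with the gene ranked first was 0.993 for Meox1, 0.991 for Meox2 and 0.989 for Tcf15 (7 parts).

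Among themselves, Meox1 and Tcf15 had r = 0.948 over the 21 arrays, Meox2 and Tcf15 0.856, and Meox1 and Meox2 0.771. For Meox1, 160 genes were closer than its homologue Meox2 and 10 were closer than Tcf15. Once the part means were removed, r over the 21 arrays was 0.448 for Meox1 and Tcf15, 0.072 for Meox1 and Meox2 and -0.040 for Meox2 and Tcf15, given as a description.

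Of the lists of other cell types, 1 held genes called higher in part 7 than in part 1, where 6.1% of all genes were higher and 7.3% were lower. The summed signal of 10 endothelial genes, of interest because of Meox2, was between 110 and 375 in part 7 and between 88.1 and 638 in part 1, and limma called 0 of the 9 that passed the filter. In part 4 the sums were 300, 237 and 663, in part 5 they were 300, 214 and 383, in part 6 they were 277, 69.1 and 73.0, and in part 7 they were 262, 110 and 375. Part 7 replicate 2 was thus the lowest of its group for this sum as for Meox2. Replicate 2 was also the lowest for this sum in every other part. In parts 5 and 6, by contrast, Meox2 was highest in replicate 2, at 258 and 255. The part of endothelial cells in the Meox2 values was not tested. No endothelial gene was at 0, and Pecam1 did not pass the filter. The sum of 7 blood genes was between 6560 and 12320 in part 7 and between 10750 and 17950 in part 1, with 2 genes lower, or 4 without part 7 replicate 2, which had the highest part 7 sum. That of 8 neural tube genes was between 162 and 275 in part 7 and between 731 and 1251 in part 1, with 1 gene lower, Fabp7. Most of the part 1 sum was Fabp7, with a mean signal of 982 in part 1 and 93.5 in part 7. The other neural tube genes that passed the filter had log2 differences between 0.10 and 1.45, and none was called. Of 6 gut endoderm genes 1 was lower, a call lost without part 7 replicate 2, and of 4 surface ectoderm and notochord genes 0 were called. Of 5 lateral and intermediate mesoderm genes that passed, 2 were higher in part 7, Lhx1 and Wt1 (log2 differences of 1.07 ± 0.31 and 0.84 ± 0.25, SE, limma adjusted p = 0.0285 and 0.0292, the first lost without part 7 replicate 2). Both were below 13.3 in every part 1 array and so passed the filter only through other parts. Their list's sum was between 44.1 and 54.0 in part 1, 109 and 263 in part 4 and 78.3 and 128 in part 7. The part of these cells in the rise of Meox1 and Tcf15 was not tested. No value in the table was exactly 0.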

How the data were processed

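Total RNA from pieces of PSM was amplified with a two-cycle protocol and hybridised to 1-colour Affymetrix mouse arrays, per the labels' protocols. Each probe set has a deposited intensity on a linear scale, for which the submitters' processing notes name MAS5. Its version and target level are not given here. MAS5 hides changes shared by most genes and is noisy at low signal. Double amplification can distort levels.

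Of 45101 probe sets, 64 were controls, 9160 carried no symbol, 932 carried more than 1 and 34945 carried 1 in GEO's platform table. Of those with 1 symbol, 34741 matched RefSeq genes of GRCm38.p6, used for names. The highest-mean probe set stood for each of 18193 genes. Values became log2(value + 16), and 12143 genes reached the table median of 13.3 in at least 3 arrays. Limma 3.58.1 (R 4.3.3) fitted the part means with a variance trend, and Benjamini-Hochberg adjusted p-values ran over all 12143 genes at a threshold of 0.05. Slopes over 4 parts are contrasts of part means. Pair comparisons used sign flips in scipy 1.17.1 or 100000 permutations in numpy 2.4.6, two-sided. Array number limits precision, and no depth exists.

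Genes named beside the members are the 5 most and 3 least correlated with each, up to 4 per list by their difference between parts 7 and 1, and listed genes with a midpoint position; a few others, such as Mesp2, Ripply2 and Nkx3-2, were chosen after their values were seen. The members and lists were chosen with earlier results of these data known. Alternatives covered the pseudocount, filter, scaling, variance model, probe set, replicate block, scale of the rise, and replicates or arrays left out.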

Additional observations from a re-analysis of the deposited data

How the results depend on the processing

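Results of the 3 genes other than neighbouring steps kept their direction and side of the threshold, or their value, in 239 of 247 cases under other settings, in 66 of 72 without one replicate number and in 500 of 504 without one array. With a pseudocount of 1, the late minus early slope of Meox2 was 0.917 and missed the threshold (adjusted p = 0.133), and without one replicate number or array it ran from 0.816 to 1.125. Other results that moved with arrays left out were the Tcf15 late slope (0.4262 to 0.5485), its first called part (3 to 4) and the lead of Meox1 over Tcf15 in share of rise (8.78 to 13.93 points). The slope of Meox1 minus Meox2 passed with a pseudocount of 64 (0.452), the mean of probe sets (0.412) or the other Meox2 probe set (0.499), and ranged from 0.2149 to 0.4233 with arrays left out; that of Meox2 minus Tcf15 passed with a pseudocount of 1 (0.504). Midpoint positions on the linear scale, chosen after seeing the data as were the limit to parts 3 to 5 and the list counts without part 7 replicate 2, were 3.72, 6.16 and 4.72 for Meox1, Meox2 and Tcf15. The cause was not tested. Of the neighbouring steps, 369 of 378 were unchanged without one array, 48 of 54 without one replicate number and 198 of 204 otherwise.

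Same-numbered arrays deviated together at a median r of 0.307, over 0.1 in 55 of 63 pairs of parts, against a median of -0.234 for different numbers. This hints at shared sets, but the labels do not tie the numbers to embryos and 8 pairs were not over 0.1, so the block was kept as an alternative. With a fixed replicate block the Tcf15 steps to part 4 (1.20, adjusted p = 0.0165) and to part 6 (0.950, adjusted p = 0.0325) passed, likewise with a random one and, for the step to part 4, with array weights (1.128, adjusted p = 0.0496), and 4 of 75 results of the 3 genes changed with a block. Counts over all genes moved more: the F test called 1633 genes, 3030 with a fixed and 2723 with a random block, 611 without replicate 1 and 645 without replicate 2. Rising early slopes were 288, and 113 to 505 under alternatives; rising late slopes were 390, and 121 to 709. Signal below about the table median limits what can be said of Meox2 in parts 1 to 4.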
